A study of Homo sapiens with 5 samples.

Results

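Deposited peaks around the genes of elastin (ELN), lysyl oxidase-like 2 (LOXL2), lysyl oxidase (LOX) and fibronectin (FN1) were examined in 3 lists from chromatin immunoprecipitation followed by sequencing (ChIP-seq). Both cell lines studied, RD and RH18, are established human lines; they derive from rhabdomyosarcoma without a fusion gene, a childhood cancer whose cells resemble muscle precursors. Histone H3 acetylated at lysine 27 (H3K27ac), a mark of active enhancers and promoters, was mapped in both lines, and MYF5, a basic helix-loop-helix regulator of the muscle lineage, was mapped in RH18. The RD titles state fusion-negative rhabdomyosarcoma, whereas the RH18 titles give no fusion status. The labels name no treatment and no other genotype. Cells were grown in serum-containing DMEM and fixed in 1% formaldehyde for 12 minutes. Every group was 1 library, so no value below has a replicate error, and a difference between the lines cannot be told apart from a difference between their libraries. Input DNA of each line is also labelled and was not analysed here.

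A peak was taken as a member where it overlapped by at least 1 bp one of 4 windows of the genome build hg19. These windows were on chromosome 7 for ELN (73390001 to 73530000, 140.0 kb), chromosome 8 for LOXL2 (23100001 to 23310000, 210.0 kb), chromosome 5 for LOX (121350001 to 121460000, 110.0 kb) and chromosome 2 for FN1 (216170001 to 216350000, 180.0 kb). Of 100703 peaks in all lists, 149 were members: 103 of 46408 in the RH18 H3K27ac list, 25 of 43159 in the RD H3K27ac list and 21 of 11136 in the MYF5 list. The windows were chosen by gene with the peak counts, folds and overlaps of these same lists already known. Those values are therefore given as a description, with no test. A window is not a gene: the nearest protein-coding genes by order in RefSeq are TMEM270 and LIMK1 for ELN, R3HCC1 and ENTPD4 for LOXL2, SRFBP1 and ZNF474 for LOX, and ATIC and MREG for FN1. Only the order of these neighbours was used, not their hg19 positions, so a window may reach into or beyond them. No peak was assigned to a transcript, since no hg19 annotation was used here, and for the same reason the muscle identity of the lines was not checked at marker genes.

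Elastin is the rubber-like core protein of elastic fibres, secreted as a soluble precursor and then cross-linked. LOX and LOXL2 are secreted copper enzymes that oxidise lysine side chains of collagen and elastin, the step from which these cross-links form. Fibronectin is a secreted glycoprotein that cells assemble into fibrils through integrin receptors and on which other matrix proteins are laid down. All belong to the extracellular matrix that connective tissue cells and muscle progenitors deposit. MYF5 binds E-boxes, short DNA words of the form CANNTG, usually as a dimer with an E protein.

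Promoter sequence from RefSeq (GRCh38.p14) is shown for FN1 and LOX, the genes matched in the search made, to show what their upstream bases hold. That search left out the chromosome of LOXL2, so the LOXL2 promoter was not looked up. Each run is the 250 bases before the outermost listed start, 5′ to 3′ on the gene's strand, and capitals mark a cyclic AMP response element word (TGACGTCA) or a CCAAT word. The FN1 bases lie on the minus strand of chromosome 2 (215436069 to 215436318) and the LOX bases on the minus strand of chromosome 5 (122078260 to 122078509). The build differs from that of the peaks, so it was not determined which peak covers these bases.
FN1: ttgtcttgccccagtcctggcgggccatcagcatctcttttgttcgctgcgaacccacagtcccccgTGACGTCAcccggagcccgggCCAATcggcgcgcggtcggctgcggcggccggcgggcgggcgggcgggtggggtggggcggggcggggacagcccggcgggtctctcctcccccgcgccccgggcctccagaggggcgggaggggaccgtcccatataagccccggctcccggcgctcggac
LOX: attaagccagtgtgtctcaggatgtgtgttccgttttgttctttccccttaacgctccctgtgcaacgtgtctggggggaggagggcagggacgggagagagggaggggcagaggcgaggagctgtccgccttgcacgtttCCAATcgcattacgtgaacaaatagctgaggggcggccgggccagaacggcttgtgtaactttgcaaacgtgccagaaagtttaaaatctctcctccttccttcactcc

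In the FN1 sequence the word TGACGTCA began 183 bases before the start and CCAAT 162 bases before it. CCAAT began 109 bases before the start in the LOX sequence. Both strands were searched. TGACGTCA, a palindrome, was in 1.65% of the 35116 upstream sequences of the same length in the table, and CCAAT in 32.0%. G and C made up 76.4% of the FN1 sequence and 55.2% of the LOX sequence, against a median of 58.0% over the table. Neither sequence held the E-box word CANNTG, which was in 61.8% of the table's sequences; its forms CAGCTG and CAGGTG were in 14.0% and 17.5%. That says only that those letters are not in these 250 bases.

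Each peak has a fold enrichment, which is the authors' value at the summit over the local background of the peak caller. The tags (sequenced fragments) behind a summit, and that background, were worked out from its fold and p-value. A tag weighs less in the RD list than in the RH18 lists, so the folds are not on a common scale. Its part in the lower RD folds was not tested. Folds and tags are therefore read within a list, against its medians: 13.98 for fold and 57.0 for tags in RH18 H3K27ac, 8.0 and 85.0 in RD H3K27ac, and 11.2 and 42.0 in MYF5.

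Of the 103 RH18 regions in the windows, 49 were at ELN, 46 at LOXL2, 6 at FN1 and 2 at LOX, together 0.222% of the RH18 list. The covered length was 61.6 kb at ELN (44.0% of the window), 55.3 kb at LOXL2 (26.3%), 3.79 kb at FN1 and 2.21 kb at LOX. RD had 14 regions at LOXL2 (5.94 kb, 2.83%), 6 at ELN (4.60 kb, 3.29%), 5 at FN1 (2.60 kb) and none at LOX. Over the spans of their chromosomes the lists averaged 1.58 regions per 100 kb in RH18 and 1.47 in RD. The windows held 35 and 4.29 per 100 kb at ELN, 21.9 and 6.67 at LOXL2, 3.33 and 2.78 at FN1, and 1.82 and 0 at LOX, with RH18 first. The lines were thus closest at FN1 and furthest apart at ELN in number of regions; with 1 library each, no spread stands behind that order.

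By an overlap of 1 bp, nearly all RD regions in the windows met an RH18 region, while most RH18 regions met no RD region. Of the 25 RD members, 23 overlapped an RH18 region by at least 1 bp (92.0%, exact Clopper-Pearson 95% interval 74.0 to 99.02%), beside 60.0% of the whole RD list. Of the 103 RH18 members, 17 overlapped an RD region (16.5%, 9.92 to 25.1%), beside 45.1% of the whole RH18 list. The shares depend on how much overlap is asked for. With an overlap of 50% of both regions, 8 of 25 RD members were shared (32.0%), beside 27.5% of the list, and 8 of 103 RH18 members (7.77%), beside 25.6%. By window the RH18 count at 1 bp was 5 of 49 at ELN, 9 of 46 at LOXL2, 0 of 2 at LOX and 3 of 6 at FN1. The overlapping RH18 members had a median width of 1110 bp and 192 tags, and the others 581 bp and 55.0 tags; over the whole list these medians were 692 bp and 95 tags against 376 bp and 42.0 tags. Regions of 1 window share their locus and are not independent, and the intervals cover counting error only.

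**Figure D1:**
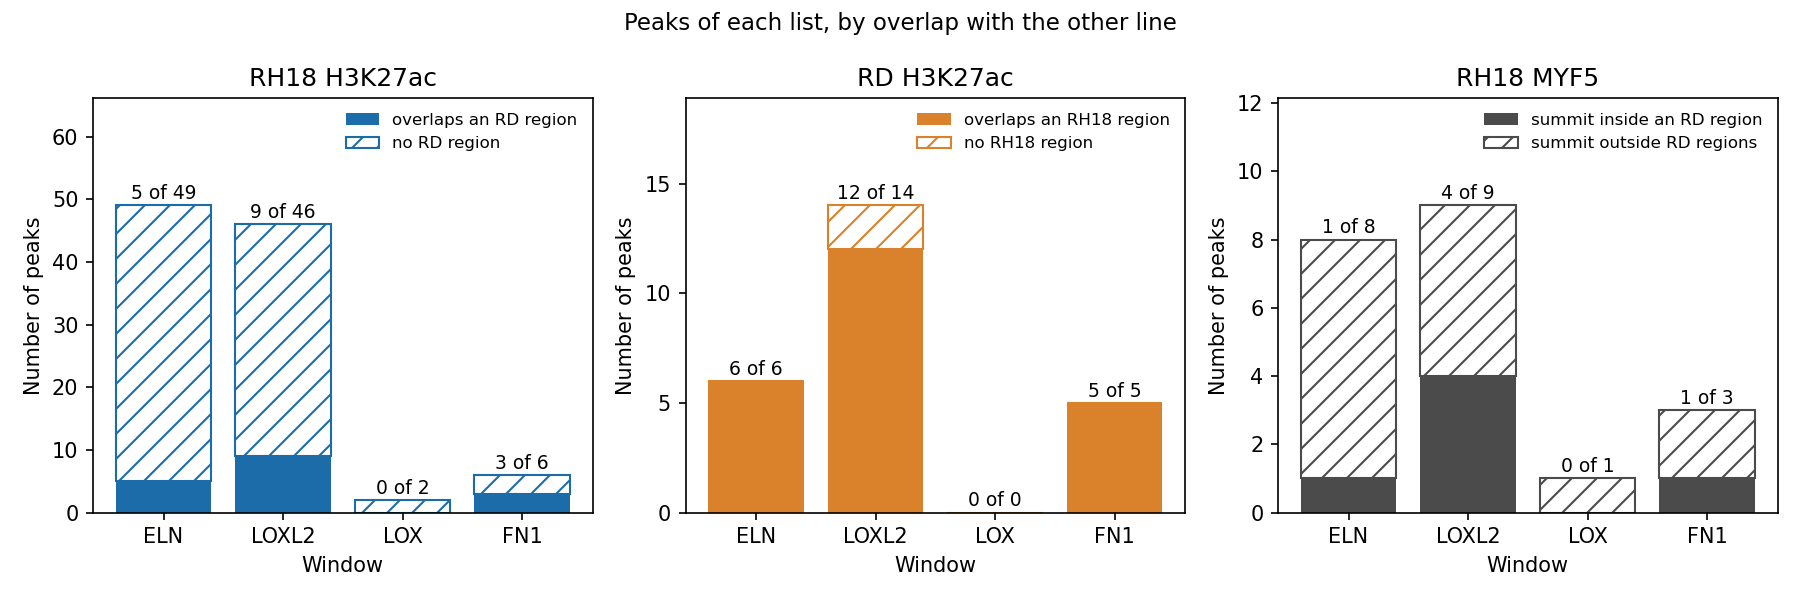
Number of deposited peaks (y axis) in each window (x axis) for the 3 lists, with filled bars for H3K27ac regions that overlap the other line, or for MYF5 summits inside an RD region, and hatched bars for the rest. The overlapping RH18 regions are 5 of 49 at ELN and 9 of 46 at LOXL2, whereas RD has 6 of 6 and 12 of 14.

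In RH18, acetylated regions were spread over most of the length of the ELN window and covered 44.0% of it. Joining regions within 12500 bp turned all 49 into a single domain of 125 kb (73391105 to 73515860, 49.4% of it covered), which ranked 9 of 18842 RH18 domains by the sum of fold times width. The single domain depends on that distance. With joining at 5 kb the largest held 37 regions over 85.3 kb and ranked 8 of 23674. The RH18 regions that overlap RD then fell outside it, in smaller domains. RH18 folds in the window ran from 4.49 to 76.6 with a median of 7.98, and 14 of the 49 exceeded the list's median. The region of highest fold was also the widest, 9950 bp on chromosome 7 (73419818 to 73429767, fold 76.6, 386 tags). It ranked 8 by width and 29 by tags among all RH18 regions, and the nearest RD region was 67523 bp away. The second widest region (73439071 to 73444856, 5786 bp) had a fold of 61.9 and 320 tags, and the third (73506067 to 73510271, 4205 bp) a fold of 35.3 and 253 tags. A 3498 bp region between the first pair (73430708 to 73434205) had 303 tags but a fold of 18.1, over a background 9.85 times the lowest of the list.

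RD acetylation in the ELN window was limited to its higher end, on the side of LIMK1, a kinase of the actin cytoskeleton. Whether these RD regions lie in ELN, in LIMK1 or between them was not determined. The 6 RD regions lay between 73497290 and 73515870, and the 107 kb of the window before them held none. In that part RH18 had 41 regions covering 51.5 kb, with folds up to 76.6. From the first to the last RD region RH18 had 8 regions covering 10.1 kb, and 5 of them overlapped RD. The RD region of highest fold (73507591 to 73509741, 2151 bp, fold 12.3, 191 tags) lay inside the third widest RH18 region. The RD region with most tags (73497290 to 73497827, 205 tags) had a fold of only 5.17, over a background 15.7 times the lowest; the RH18 region that contains it had 196 tags, a fold of 30.7 and a background of 3.30 times. RD folds elsewhere in the window were 10.4 (73498316 to 73499391, 149 tags) and, for the other 3 regions, 5.19 or lower.

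Many ELN peaks lay on a raised local background. A background of at least 4 times the lowest was found under 6 of 6 RD members at ELN, beside 31.9% of the RD list, and under 11 of 49 RH18 members, beside 10.1% of that list. The median was 4.95 times in RD and 2.98 times in RH18. Its part in the folds was not tested, and copy number was not measured.

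MYF5 had 8 peaks in the ELN window, with folds from 6.69 to 29.8 and 30 to 160 tags. The highest (73424441 to 73425351, fold 29.8, 160 tags) had its summit 368 bp from that of the 9950 bp RH18 region, and ranked 160 by tags in the MYF5 list. A pair of lower peaks lay in the same region, at 73420459 to 73420764 (fold 8.13, 47 tags) and 73421583 to 73421763 (fold 7.52, 41 tags). The next by fold (73515435 to 73515751, fold 12.8, 96 tags) had its summit in a 101 bp gap between RH18 regions. The region before ended 54 bp from the summit, the next began 48 bp from it, and an RD region lay 108 bp away. The peak itself overlapped both of these RH18 regions and that RD region. The 1047 bp peak at 73484295 to 73485341 (fold 12.2, 73 tags) was wider than the RH18 region of 284 bp that held its summit, and that region had 35 tags. The lowest (73455162 to 73455405, fold 6.69, 30 tags) was inside a 2698 bp region of fold 13.4. RD acetylation was present at 1 of the 8 summits (73508522 to 73508710, fold 6.86), at the higher end of the window.

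**Figure D2:**
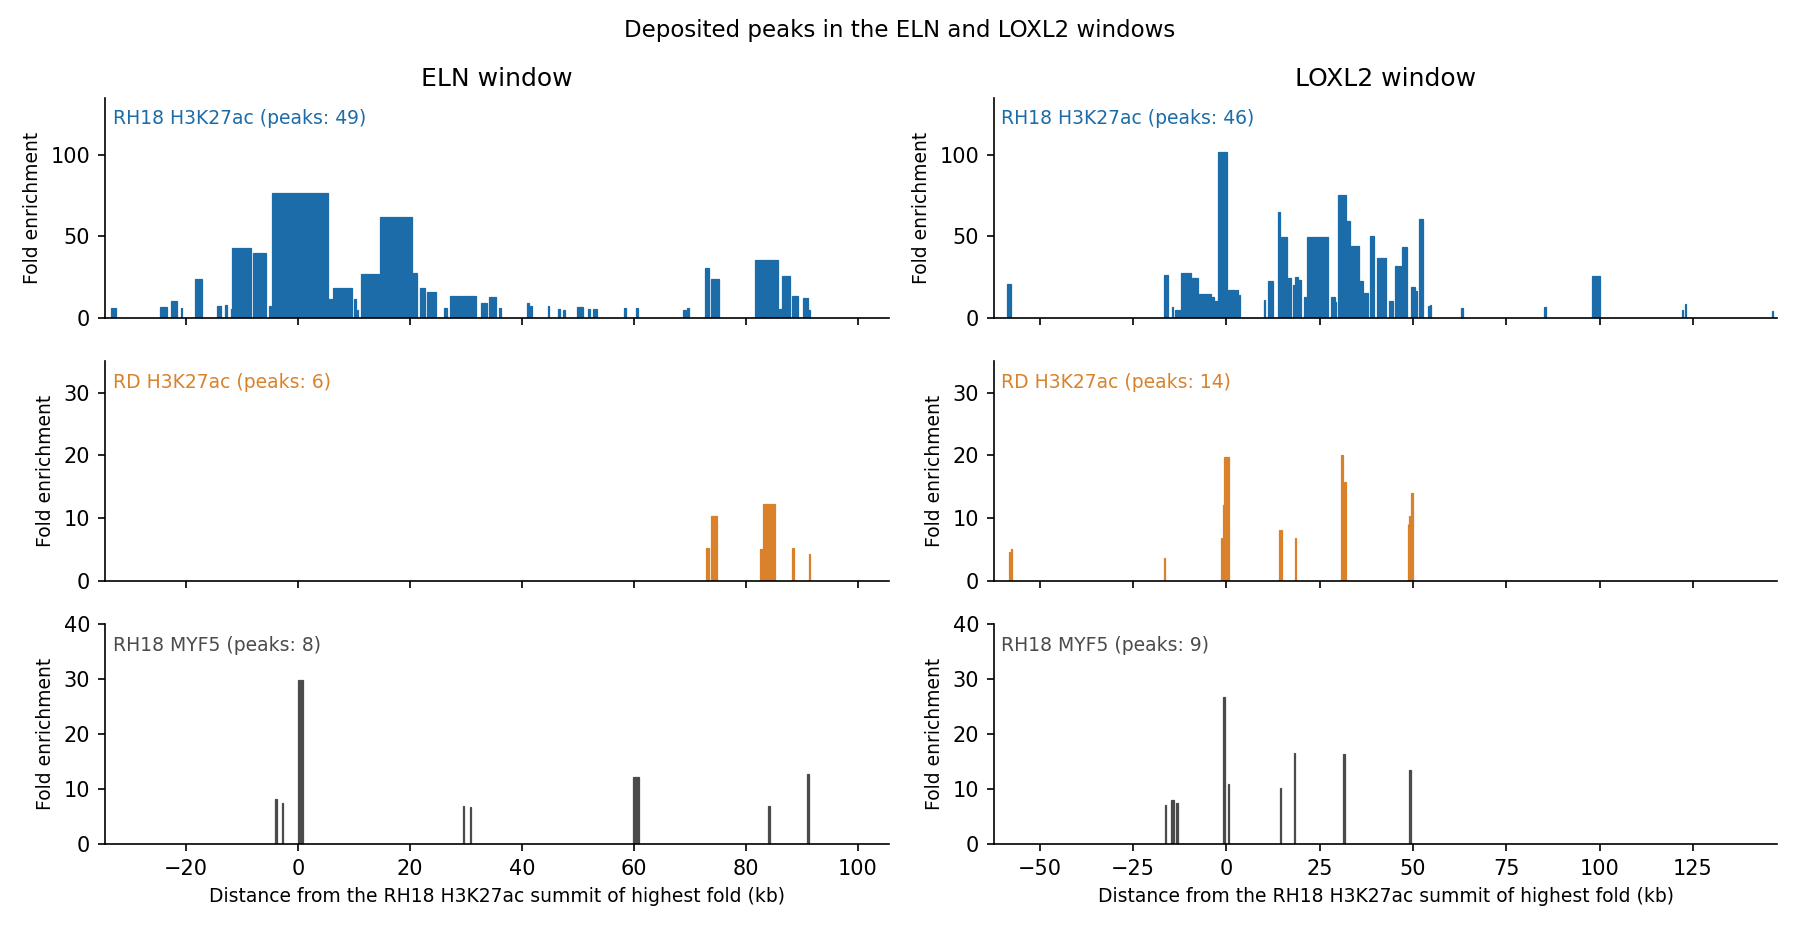
Deposited peaks in the ELN (left) and LOXL2 (right) windows, with position in kb from the RH18 H3K27ac summit of highest fold on the x axis and the authors' fold enrichment on the y axis; a bar spans a peak and its height is the fold at the summit. The y axis differs between lists, whose folds are not on 1 scale; RD has 6 peaks at ELN, all at the right, and 14 at LOXL2, spread among 46 in RH18.

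The LOXL2 window held the other large RH18 domain. Joined in the same way, 40 of its 46 regions formed 80.1 kb (23145603 to 23225719, 63.2% of it covered), which ranked 13 of 18842 and held 9 MYF5 summits. With joining at 5 kb this domain split, and its largest parts were 44.8 kb (rank 17 of 23674) and 20.4 kb (rank 145). Folds in the window ran from 4.26 to 102 with a median of 19.5, and 30 of the 46 exceeded the list's median. The highest fold, 102, belonged to a 2451 bp region on chromosome 8 (23160174 to 23162624, 283 tags). Most tags lay in the region at 23192304 to 23194286, with 351 tags and a fold of 75.7. The widest region (23183847 to 23189608, 5762 bp, fold 49.4, 217 tags) had no RD counterpart, nor had the next widest, of 3147 bp (fold 14.5) and 2775 bp (fold 27.4). Background was lower than at ELN: the median was 1.86 times the lowest in RH18 and 1.31 times in RD, with 5 of 46 and 3 of 14 members at 4 times or more.

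RD acetylation in the LOXL2 window lay at separate points. At the lower end of the window, before the RH18 domain, a pair of RD regions (23104153 to 23104363 and 23104590 to 23105032, folds 4.57 and 5.04) overlapped an RH18 region of 1074 bp (fold 20.5, 221 tags). The other 12 RD regions lay within the span of the domain. At the RH18 region of highest fold RD had 3 regions, the widest of 1213 bp (23161761 to 23162973, fold 19.8, 117 tags). At the RH18 region with most tags RD had a pair, at 23193036 to 23193572 (fold 20.0, 133 tags) and 23193767 to 23194419 (fold 15.8, 170 tags), the former the highest RD fold in the window. A pair of narrow RD regions of 317 and 312 bp (23176349 to 23176665 and 23176949 to 23177260, folds 8.10 and 8.14) lay in RH18 regions of 505 and 1591 bp with folds of 64.8 and 49.8. The only RD members of any window without an RH18 overlap were at 23210921 to 23211145 (fold 8.99) and 23211290 to 23211502 (fold 10.4, 63 tags). They lay in a break of the RH18 list, 101 and 234 bp from RH18 regions. Beyond the last RD region RH18 had 10 more regions, among them 23213912 to 23215000 (fold 60.5, 213 tags), the highest LOXL2 fold of RH18 alone, and 23260374 to 23262438 (2065 bp, fold 25.7, 166 tags), 48022 bp from RD acetylation.

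The 9 MYF5 peaks at LOXL2 had folds of 7.14 to 26.8 and 28 to 81 tags. The summits of the highest (23161402 to 23162020, fold 26.8, 81 tags) and its neighbour (23162754 to 23162979, fold 10.9, 35 tags) both fell in the widest RD region. They were also in RH18 regions. The next by fold (23180378 to 23180614, fold 16.6, 54 tags) had its summit 172 bp from an RD region. The peak after it by fold (23193473 to 23194188, fold 16.3, 73 tags) had its summit inside acetylated regions of both lines. A peak at 23211355 to 23211770 (fold 13.5, 49 tags) had its summit outside regions of both lines. The summit lay between RD regions ending 13 bp and beginning 217 bp from it, and 221 bp from an RH18 region. The peak itself overlapped these RD regions and that RH18 region. The lowest (23146021 to 23146212, fold 7.14, 28 tags) was in an RH18 region, with its summit 227 bp from an RD region. Summits inside RD regions were 4 of 9, those inside RH18 regions 8 of 9.

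Among the 4 windows, LOX was the one with acetylation in RH18 and no listed RD region. RH18 had a 1968 bp region on chromosome 5 (121412452 to 121414419, fold 63.8, 194 tags) and a 245 bp region (121429952 to 121430196, fold 8.10, 28 tags). The first ranked 1435 of 46408 by fold, on a background 1.17 times the lowest. The nearest RD region lay 114439 bp from it, at 121297680 to 121298013 (fold 20.3, 118 tags), 52.0 kb outside the window on the side of SRFBP1. On the other side the next RD region was 651 kb from the window. The single MYF5 peak (121413843 to 121414018, fold 9.41, 30 tags) had its summit 54 bp from the summit of the large RH18 region. Its fold and tags were below the medians of the MYF5 list, so a summit of high acetylation carried a low MYF5 peak here. An RD region too weak to be listed was not detectable from these lists.

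FN1 was the window in which the lines were closest in number of regions, 6 in RH18 and 5 in RD. Both had a close pair of regions at the same place on chromosome 2. In RH18 these were 216300082 to 216300844 (763 bp, fold 60.8, 218 tags) and 216300964 to 216301751 (788 bp, fold 102, 283 tags), 119 bp apart. In RD they were 216300245 to 216300717 (473 bp, fold 4.95, 87 tags) and 216301014 to 216301919 (906 bp, fold 25.6, 170 tags), 296 bp apart. The second of the pair had the higher fold in each line, and ranked 116 by fold in the RH18 list and 904 in the RD list. Its summits in the lines were 2 bp apart. In RH18 its fold and tags were identical to those of the LOXL2 region of highest fold, and 4 entries of the RH18 list share this fold and p-value. The lower RD fold at the first region came with a background of 6.27 times the lowest, against 1.33 times at the second; its part in that difference was not tested.

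Apart from this pair, acetylation in the FN1 window was sparse. RH18 had small regions at 216275303 to 216275561 (fold 4.78, 39 tags), 216298464 to 216298881 (fold 4.80, 68 tags) and 216329238 to 216329566 (fold 8.36, 39 tags), none with an RD counterpart. A stretch of 98024 bp in RH18, and of 122647 bp in RD, had no listed region. At the far end of the window, on the side of ATIC, an enzyme gene of purine synthesis, RH18 had 1 region (216176049 to 216177278, 1230 bp, fold 16.8, 126 tags). RD had 3 within or across the bounds of that region, with folds of 3.54, 7.16 and 8.39 and 113, 197 and 165 tags. The RD backgrounds under these 3 were 12.53, 10.4 and 7.02 times the lowest. Around the RH18 pair the joined domain spanned 3.29 kb and ranked 1531, close to the 1596 of the LOX region.

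All 3 MYF5 peaks of the FN1 window were at this pair. The highest (216300571 to 216300864, fold 20.3, 61 tags) extended past the end of the first RH18 region, with its summit inside it, 18 bp beyond the first RD region and 279 bp before the second. The next (216301298 to 216301586, fold 13.1, 39 tags) had its summit 16 bp from the H3K27ac summit of RH18 and 14 bp from that of RD. The lowest (216300169 to 216300487, fold 8.28, 24 tags) was inside the first RH18 region. Its summit lay 11 bp outside the first RD region, which the peak itself overlapped. All 3 rested on the lowest background of the MYF5 list. The highest MYF5 fold thus sat at the lower of the acetylation folds of the pair, whereas at ELN and LOXL2 it sat in the RH18 region of highest fold.

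**Figure D3:**
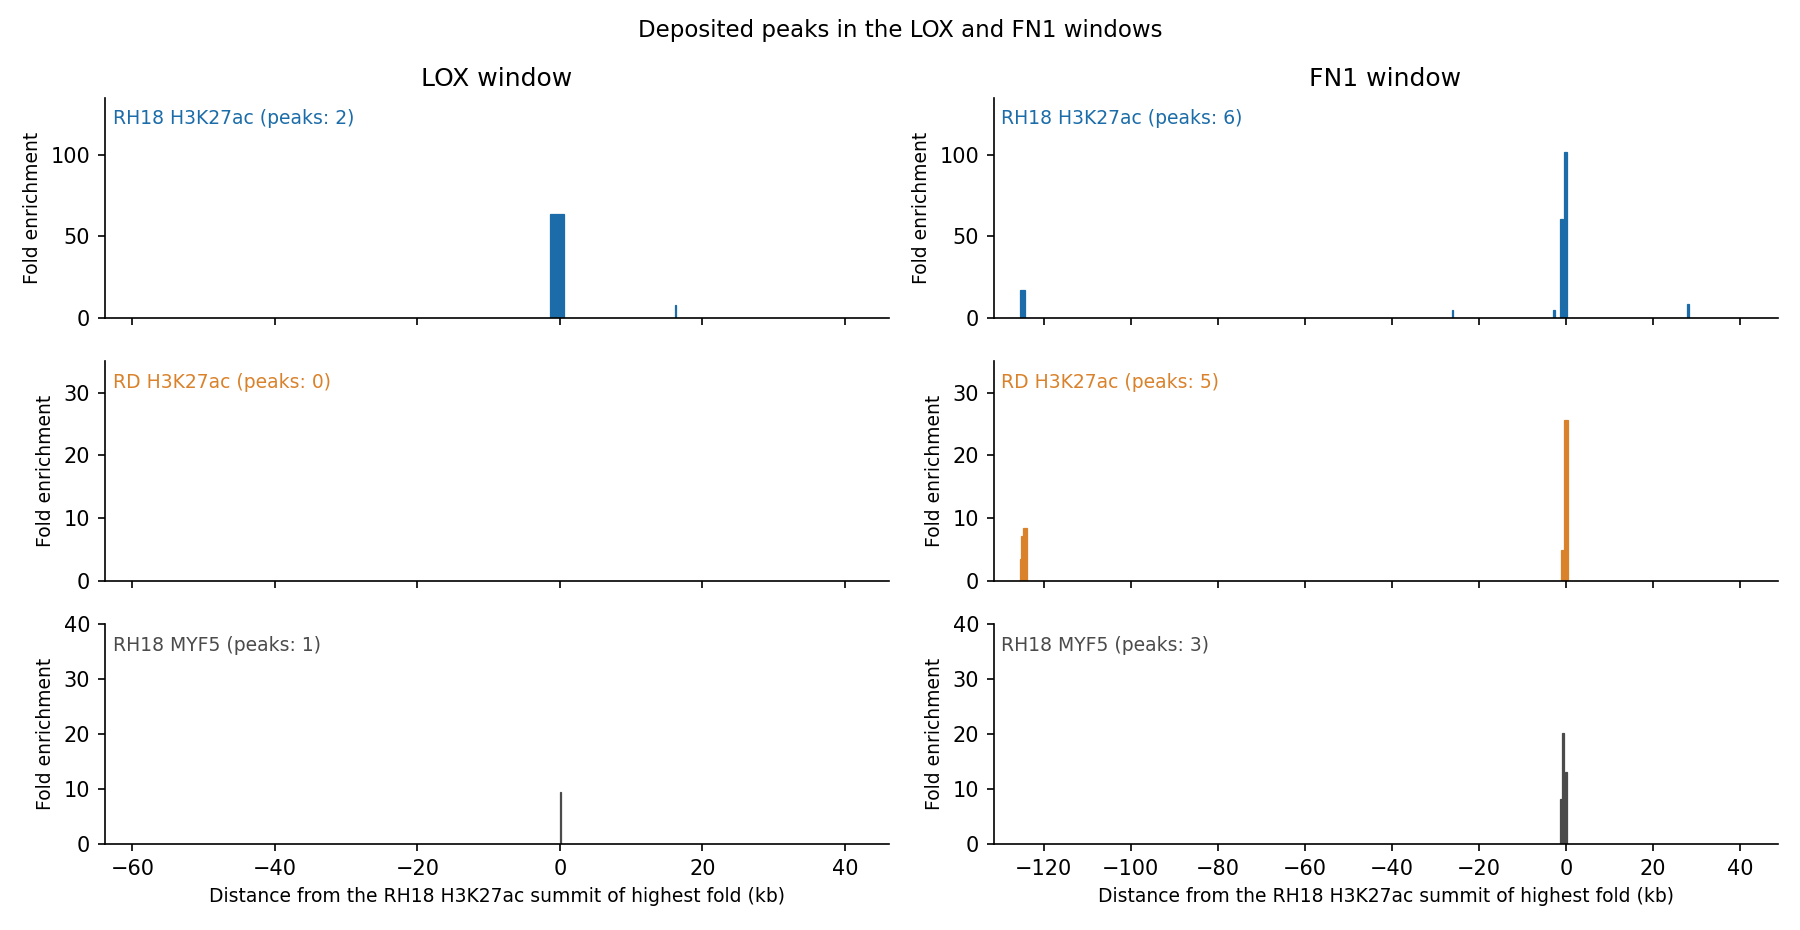
Deposited peaks in the LOX (left) and FN1 (right) windows, drawn as bars over position in kb from the RH18 H3K27ac summit of highest fold (x axis), with the authors' fold enrichment as height (y axis, which differs between lists). RD has no peak at LOX; at FN1 the peaks of highest fold in all 3 lists lie within 1 kb of 0.

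Across the windows, MYF5 summits lay in RH18 acetylation in 19 of 21 cases (90.5%, 69.6 to 98.8%), beside 55.2% of the MYF5 list, and within 500 bp of it in all 21, beside 72.1%. They lay in RD acetylation in 6 cases (28.6%, 11.3 to 52.2%), beside 39.9%, and within 500 bp in 12, beside 62.9%. Counting any overlap of the MYF5 peak in place of its summit, 10 of 21 met an RD region (47.6%), beside 55.5% of the list. All 6 summits in RD regions were also inside RH18 regions, so 6 of 21 (28.6%) were inside both, beside 33.5% of the list. Of the rest, 1 sat in an RH18 gap with regions within 500 bp on both sides and 2 in such an RD gap, beside 4.81% and 10.6%. The median distance from these 19 summits to the H3K27ac summit of their RH18 region was 291 bp, with a range of 9 to 3927 bp. For RD, no MYF5 list was used here.

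Seen from acetylation, 15 of 103 RH18 members (14.6%, 8.39 to 22.9%) held a MYF5 summit, beside 12.0% of the list, and 5 of 25 RD members (20.0%, 6.83 to 40.7%), beside 9.71%. The RH18 members with a summit had a median width of 1591 bp and 194 tags, and those without one 653 bp and 59.0 tags; over the list the medians were 1091 bp and 151 tags against 437 bp and 51.0 tags. The widest LOXL2 region and the second widest ELN region, both over 5 kb, held none. No MYF5 member had a background of 4 times the lowest or more, beside 4.91% of its list, although every ELN peak had at least 2.04 times.

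Where both lines were acetylated, the distance between their summits varied widely. For the 23 overlapping RD regions the median distance to the nearest summit of an overlapping RH18 region was 102 bp, and the range was 1 to 1667 bp. Over the 25884 overlapping regions of the whole RD list the median was 61.0 bp. The summits of 11 of the 23 lay within 100 bp (47.8%), beside 60.1% of the list.

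**Figure D4:**
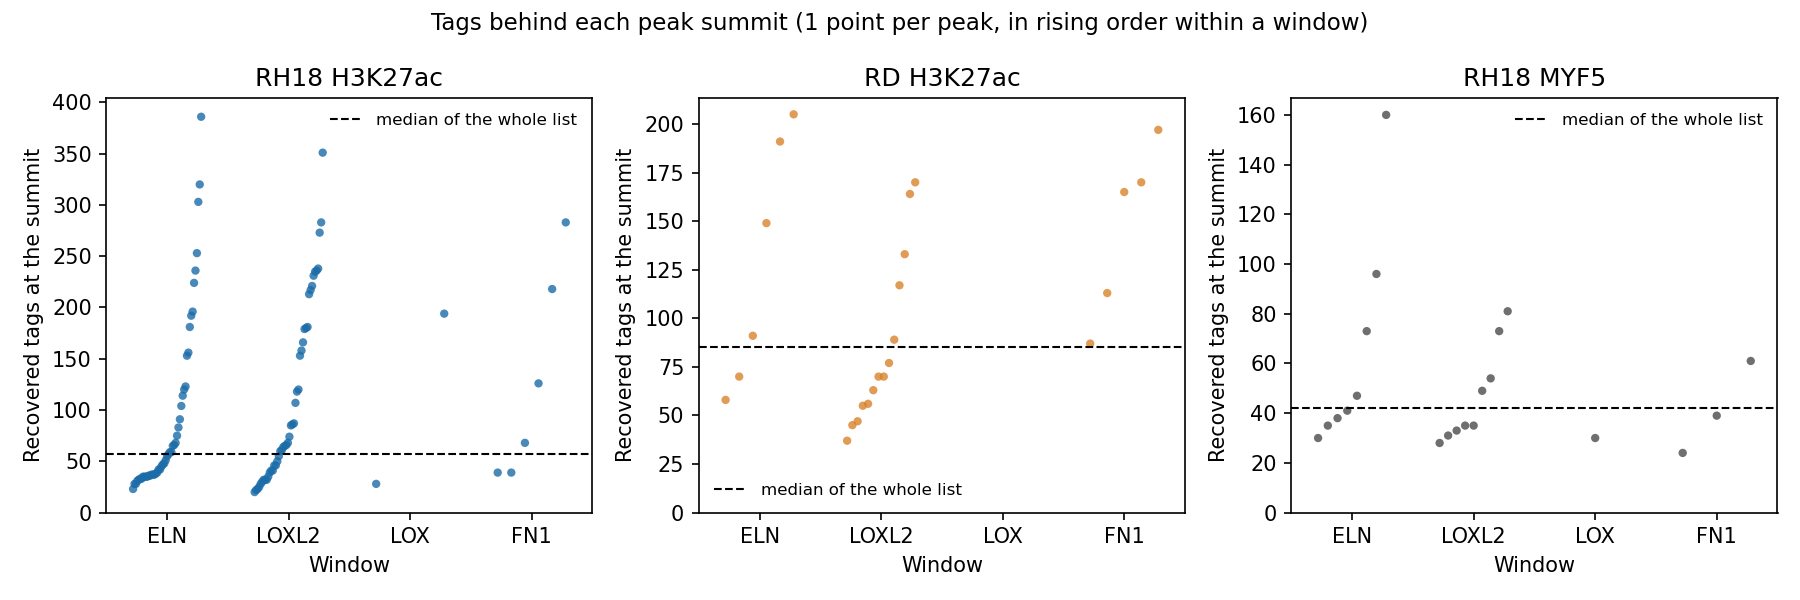
Recovered tags at each peak summit (y axis) by window (x axis) for the 3 lists, 1 point per peak in rising order within a window, with a dashed line at the list's median. RH18 peaks reach 386 tags at ELN and 351 at LOXL2, and the MYF5 peak of 160 tags at ELN stands above the next, of 96.

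The bounds of the windows decide which peaks count. Within 50 kb outside them there were no RD regions, 5 RH18 regions and 2 MYF5 peaks. These were at LOXL2 an RH18 pair of folds 8.49 and 15.1 and a MYF5 peak of fold 14.4 (23310159 to 23310459), at LOX an RH18 region of fold 10.1 and a MYF5 peak of fold 15.7 (121480030 to 121480231), and at FN1 an RH18 pair of folds 34.5 and 28.9. The MYF5 peak beyond the LOX window was thus higher than the 1 inside it. At ELN no list had a peak in these flanks. Just inside the bounds, the outermost RH18 members had folds of 5.77 and 4.81 at ELN, 20.5 and 4.26 at LOXL2, and 16.8 and 8.36 at FN1.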

How the data were processed

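One peak list per ChIP library was used (RH18 H3K27ac, RD H3K27ac, RH18 MYF5). BWA 0.7.10, MACS2 2.1.0 and hg19 are named, with no role or order, per the submitters' processing notes; the control and threshold used are not given in the sources used here. Each deposited list gives, per peak, a fold (ratio) over local background, a −log10 p-value and a −log10 q-value. The deposited score, 10 times the −log10 p-value rounded down, was not used. The lowest −log10 p-value was 7.09 in RH18 H3K27ac, 5.00 in RD and 9.09 in MYF5, so the lists end at unlike thresholds.

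Tags and background were solved from fold and p-value with the formulas of MACS2. A tag was worth 0.832, 0.273 and 0.658 pileup units in these lists, and 100% of peaks of each came out whole within 0.1 tag; 10 of 103, 14 of 25 and 7 of 21 members had more than 1 solution, resolved by the nearest whole tag. Library totals are unknown. The step was tested on simulated data, as was the overlap step.

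Members and lists were chosen with earlier results of these data known, so no test was run. Named peaks are those of highest fold or width, those of 1 line alone and the MYF5 peaks of highest and lowest fold per window (all where there were 6 or fewer); others named were chosen after their values were seen. A wider list of matrix genes was not analysed here, as it needs hg19 annotation. The search of the RefSeq promoter table matched FN1 and LOX and found no entry for ELN. It left out the chromosome of LOXL2, so whether the table holds a LOXL2 promoter was not read. The words TGACGTCA and CCAAT were chosen after the sequences were seen. Work was done in Python 3.11.15 with scipy 1.17.1 and numpy 2.4.6, tables with pandas 2.3.3 and plots with matplotlib 3.10.9.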

Additional observations from a re-analysis of the deposited data

How the results depend on the processing

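Of 40 alternative values of the shares of overlap, 7 left the 95% interval of the value reported; these intervals are wide, and staying within one does not show stability. By size, 6 of the 40 differed by over 1.5 times. With an overlap of 50% of both regions, 7.77% of RH18 members and 32.0% of RD members were shared. With regions within 1000 bp joined, the shares were 25% and 100%. Without the LOXL2 window all RD members were shared (100%), and MYF5 summits inside RD regions fell to 16.7%. MYF5 summits were at RH18 regions in 100% of cases with any overlap or within 500 bp, and at RD regions in 47.6% with any overlap and 57.1% within 500 bp. The wider distances and the joining widen what counts as shared by construction. Domain ranks that moved by over 1.5 times were, with joining at 25 kb, 17 for ELN and 26 for LOXL2 in RH18 and 656 for LOXL2 in RD, and, at 5 kb, 1771 for ELN in RD. By tags the strongest peak was another in 4 of 11 cases, and by −log10 p-value in 2. No paired analysis was possible because each group is 1 library. Depth is unknown and the lists end at different thresholds, which limits what an unlisted region shows.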
